A study of Homo sapiens with 12 samples.

Results

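Fibronectin, fibrillin-1, the fibulin EFEMP1, the matricellular proteins THBS1, SPARC and TNC, and the stanniocalcins STC1 and STC2 are secreted proteins of the extracellular matrix or the space around it. The transcripts of these 8 genes (FN1, THBS1, EFEMP1, SPARC, TNC, FBN1, STC1 and STC2) were followed in HT1080 cells, a human fibrosarcoma line. The genes were chosen by symbol, with earlier results of these data known. All 8 have a row in both tables of normalized counts, among 15459 genes listed in both. The study around them maps the proteins that lie close to the secreted protease inhibitor TIMP2 by tagging neighbours with biotin. It names THBS1, EFEMP1 and STC1 as such neighbours, but lists EFEMP1 and STC1 as specific to its 3D spheroid cultures. Its RNA experiments ask how 2 treatments change the transcripts of the same cells. The treated cells received PMA (phorbol 12-myristate 13-acetate) at 40 nM, a phorbol ester that activates protein kinase C, or ConA (concanavalin A) at 40 µg/mL, a lectin that binds mannose and glucose residues on glycoproteins, for 24 h in medium with little serum. Each treatment has 3 libraries, and each has 3 untreated control libraries of its own, in a table of its own.

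Fibronectin is a large adhesive glycoprotein that cells assemble into fibrils through integrins, and other matrix proteins are laid down on it. Fibrillin-1 forms the microfibrils that carry elastic fibres and store latent TGF-beta, and fibulins such as EFEMP1 bind these structures. Matricellular proteins such as thrombospondin-1, SPARC and tenascin-C sit in the matrix without building it, and they alter adhesion, matrix assembly and growth factor signals, often in wounds and tumours. Stanniocalcins are secreted glycoproteins that inhibit the pappalysin proteases PAPP-A and PAPP-A2, which free insulin-like growth factors from their binding proteins.

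Values below are normalized counts, that is, estimated read counts per gene divided by 1 factor per library, without division by gene length. The libraries held an estimated 33616852 to 45568279 reads on genes. Because the tables were normalized separately, tests stay within a table, and levels from both tables are given side by side only. To be called, a gene had to reach a log2 fold change of 1 in either direction and a Benjamini-Hochberg adjusted p no higher than 0.0001 in limma, a linear model with moderated variances, on log2(value + 1). As a second rule, genes past an adjusted p of 0.05 at any size were counted. In the labels nothing says whether the 3 libraries of a group came from separate cultures, so p-values measure the spread between these libraries, which may be technical. In bulk RNA of this kind, fewer cells that express a gene and less of its RNA per cell cannot be told apart.

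The libraries fitted their label as mesenchymal cells. All 10 mesenchymal markers were listed in both tables, led by vimentin, and no erythroid marker of 5 was listed. The mesenchymal markers summed to between 309550 and 317191 normalized counts in the PMA controls and between 385723 and 405399 with PMA. Their sum was between 262070 and 274822 in the ConA controls and between 181264 and 196717 with ConA. Vimentin made up most of the shift with each treatment, and the other markers did not all follow it. With PMA the means of CDH2, TWIST1, PDGFRB, COL6A1, S100A6 and S100A4 fell, while vimentin, ZEB1, COL6A2 and CD44 rose. With ConA the means of CDH2, TWIST1, COL6A1 and COL6A2 rose, while vimentin and the remaining markers fell. Of 10 epithelial markers, 4 were listed in the PMA table and 8 in the ConA table, with sums of 201 to 353 normalized counts over all libraries, and EPCAM and CDH1 were not listed in the PMA table and averaged 11 to 23 normalized counts in the ConA table. Of 10 leukocyte markers, 7 were listed in the PMA table, with sums of 881 to 933 normalized counts in controls and 850 to 1262 with PMA. With ConA and its controls 4 were listed and PTPRC was not, with sums of 440 to 515 normalized counts in controls and 400 to 491 with ConA. Endothelial markers were listed for 5 of 6 genes, CDH5 not among them, and nearly all of their sum was TIE1: 2599 to 2775 normalized counts rose to between 4651 and 4892 with PMA, against 3015 to 3376 in the ConA controls and 3163 to 3573 with ConA. The part of these shifts in the results below was not tested.

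The promoters of THBS1, FBN1 and FN1 are shown because the first 2 are called lower with PMA and the third is lower with both treatments without a call. SPARC is also called lower with PMA, and STC2 is also lower with both treatments without a call. Neither is shown, because GENCODE 29 exons cover all of the 250 bases before its start. They come from RefSeq on GRCh38.p14, where 6 of the 8 genes matched; EFEMP1 and STC1 did not. Each is read 5′ to 3′ on the strand of the gene, from the 250 bases before its annotated start, with any stretch that a GENCODE 29 exon covers left out, and capitals mark a motif that was found. THBS1 lies on the plus strand, chr15:39580829-39581078, a stretch without an annotated exon. FBN1 lies on the minus strand, chr15:48644971-48645220, within introns of 3 longer FBN1 transcripts of GENCODE 29. FN1 lies on the minus strand, chr2:215436173-215436252, a stretch of 80 bases.
THBS1: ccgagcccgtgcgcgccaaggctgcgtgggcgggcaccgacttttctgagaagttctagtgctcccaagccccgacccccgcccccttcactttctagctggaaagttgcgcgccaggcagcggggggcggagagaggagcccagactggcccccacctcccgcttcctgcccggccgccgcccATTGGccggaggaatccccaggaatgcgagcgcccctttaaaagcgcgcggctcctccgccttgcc
FBN1: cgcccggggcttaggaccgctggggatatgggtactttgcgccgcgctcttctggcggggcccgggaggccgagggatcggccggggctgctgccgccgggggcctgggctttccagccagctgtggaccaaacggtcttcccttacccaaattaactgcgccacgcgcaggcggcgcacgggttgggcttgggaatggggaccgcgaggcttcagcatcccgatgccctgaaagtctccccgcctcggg
FN1: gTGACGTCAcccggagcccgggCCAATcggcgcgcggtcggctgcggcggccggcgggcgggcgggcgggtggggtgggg
A CCAAT box was searched on both strands and found in 3 of the 6 matched promoters, those of FN1, STC2 and THBS1, and in 32% of 35116 promoters of the same length. In THBS1 it lies on the minus strand, so that the capitals read ATTGG, with its first base at position -66 from the start. In FN1 it begins at position -162, and the cAMP response element TGACGTCA, which 1.65% of all promoters hold, begins at -183. The AP-1 motif TGANTCA, which 6.57% of all promoters hold, and TATAAA, which 10.7% hold, were not among the letters of these 6 windows. A match is a description of the letters and not a binding site.

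With PMA, 1 of the 8 genes was called higher and 4 were called lower, and with ConA none was called in either direction. STC1 rose 5.67-fold with PMA, and THBS1, EFEMP1, SPARC and FBN1 fell, with control means 2.09 to 3.40 times the treated means. Across all 15153 genes tested, 4.03% were called higher and 4.61% lower with PMA, so 1 and 4 of 8 compare with shares of a few percent. At an adjusted p of 0.05 at any size, 7 of the 8 genes passed with PMA, TNC being the exception, beside 63.3% of all genes. For none of the 8 did treated and control libraries overlap, beside 67.9% of all genes. The median log2 fold change of the 8 genes was -0.98 with PMA, against 0.0029 over all genes tested, and the median of its absolute size was 1.29 against 0.30. These counts and medians describe 8 chosen genes and are no test of the group.

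**Figure D1:**
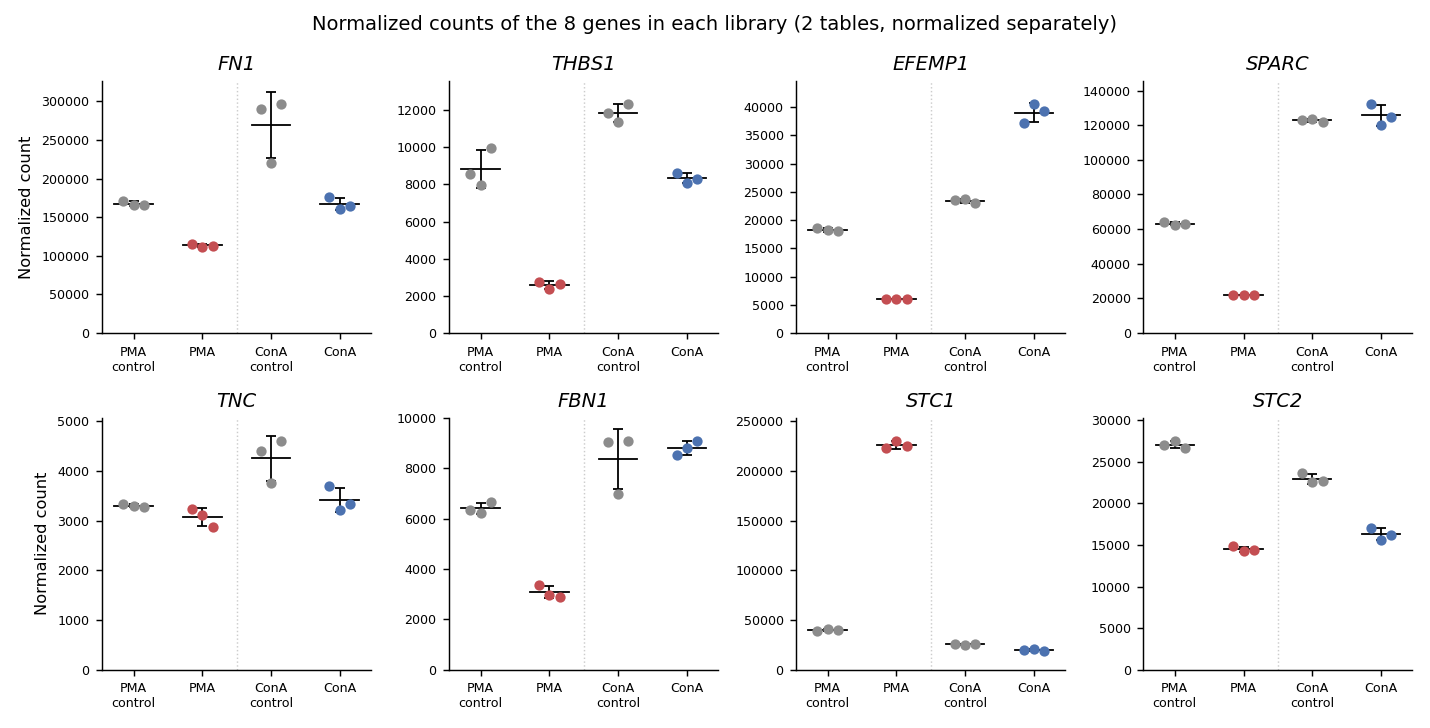
Normalized count (vertical axis, from 0) of each of the 8 genes in every library, by group (horizontal axis); points are libraries, and bars give the mean and SD of 3 libraries. With PMA, STC1 stands between 223667 and 230629, above its controls at 39435 to 40939, while the other 7 genes lie below theirs; the tables left and right of the dotted line were normalized separately.

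Stanniocalcin-1 changed most. STC1 measured 39435, 40939 and 39511 normalized counts in the 3 PMA controls and 223667, 230629 and 224889 in the 3 PMA libraries. The groups lie far apart, and each group spans a narrow range. The log2 fold change was 2.50 (SE 0.043, limma adjusted p = 2.76e-12), which as a fold is 5.31 to 6.05 at 95% confidence. By size this is place 145 among the 7618 genes with a positive log2 fold change with PMA. STC1 took 0.108% of the library's normalized counts in the controls and 0.564% with PMA.

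The paralogue STC2 went the other way with PMA. It measured 26988, 27530 and 26653 normalized counts in the controls and 14817, 14265 and 14371 with PMA, with no overlap. The log2 fold change was -0.90 (SE 0.036, adjusted p = 2.19e-09), past an adjusted p of 0.05 but short of the fold threshold, and its 95% interval reached down to -0.98. Within each library the ratio of STC1 to STC2 was 1.46 to 1.49 in the PMA controls and 15.1 to 16.2 with PMA. That ratio compares normalized counts without length, so only its change between groups can be read.

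Thrombospondin-1, which binds CD47 and integrins and activates latent TGF-beta, had the deepest fall of the 8 genes with PMA. THBS1 measured 8569, 7970 and 9964 normalized counts in the controls and 2755, 2373 and 2658 with PMA. Every treated library lay below every control, although the controls spread more, relative to their mean, than those of the other 7 genes, at 8834 ± 1023 (SD, n = 3). The controls were 3.40 times the treated mean, a log2 fold change of -1.76 (SE 0.077, adjusted p = 4.52e-09).

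SPARC, a collagen-binding matricellular protein also called osteonectin, fell from 63938, 62498 and 63222 normalized counts to 21987, 21817 and 22067 with PMA. Both groups were tight, and their log2 fold change was -1.53 (SE 0.036, adjusted p = 3.1e-11). CLMAT3, a gene on the opposite strand over the start of SPARC, reached at most 45.1 normalized counts in any library, against at least 21817 for SPARC. Whether the counting used strand is not given in the sources used here, so reads of a gene and of an antisense partner cannot be told apart.

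Of the elastic-fibre proteins, EFEMP1 (fibulin-3) measured 18536, 18212 and 18003 normalized counts in the PMA controls and 6051, 6102 and 6028 with PMA. The controls were 3.01 times the treated mean (log2 fold change -1.59, SE 0.034, adjusted p = 1.46e-11). FBN1 measured 6359, 6224 and 6656 normalized counts in the controls and 3352, 2965 and 2905 with PMA. The log2 fold change of FBN1 was -1.06 (SE 0.055, adjusted p = 1.7e-08), just inside the fold threshold, and its 95% interval, from -1.18 to -0.94, crosses that threshold. No library of one group reached into the other for either gene.

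Fibronectin fell less. FN1 measured 170977, 165187 and 165879 normalized counts in the PMA controls and 115608, 111935 and 112813 with PMA, again without overlap. The log2 fold change of -0.56 (SE 0.045, adjusted p = 7.48e-07) did not reach the fold threshold. FN1 held 0.453% of all normalized counts in the controls and 0.283% with PMA. Tenascin-C, which lowers adhesion to fibronectin, had the smallest change. TNC measured 3335, 3305 and 3277 normalized counts in the controls and 3232, 3114 and 2876 with PMA. The libraries do not overlap, but the lowest control and the highest treated library are close, and the log2 fold change of -0.11 (SE 0.047, adjusted p = 0.0677) did not pass. Its 95% interval runs from -0.21 to -0.0031 before adjustment for many genes. The adjusted p of TNC moved to the other side of 0.05 with quantile normalization (0.00115), with median centring (0.0409) and without PMA replicate 1 (0.0326). Without PMA replicate 3 the log2 fold change was -0.059 (adjusted p = 0.281).

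**Figure D2:**
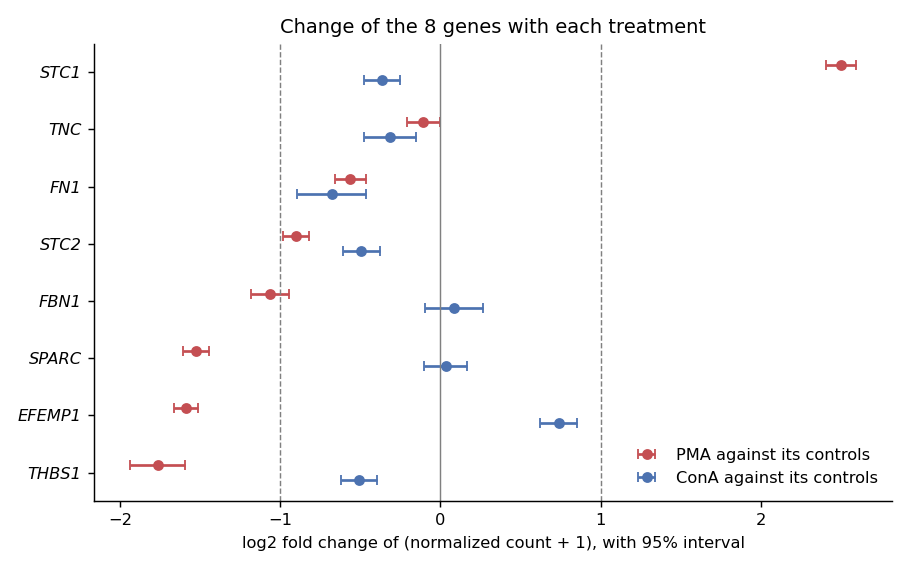
Log2 fold change (horizontal axis, on normalized count + 1) with its 95% interval for each gene (vertical axis), with PMA in red and ConA in blue, each against its own controls; dashed lines mark a log2 fold change of 1 in either direction. With PMA the 8 genes span -1.76 to 2.50, and with ConA all 8 lie between -0.68 and 0.74.

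With ConA the same genes moved by less than 2-fold. None of the 8 was called by limma, beside 5.83% called higher and 2.88% called lower of 15139 genes tested. At an adjusted p of 0.05 at any size, 6 passed (EFEMP1 higher, and FN1, THBS1, TNC, STC1 and STC2 lower), beside 65.3% of all genes, so this share is near the background. The same 6 genes had no overlap between treated and control libraries, beside 69.3% of all genes. The median log2 fold change of the 8 genes was -0.34, against -0.0022 over all genes, and the median absolute size was 0.43 against 0.34.

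EFEMP1 was the only one of the 8 genes past an adjusted p of 0.05 in the upward direction with ConA. It measured 23506, 23684 and 22987 normalized counts in the ConA controls and 37267, 40577 and 39307 with ConA. All treated libraries lay above all controls, by a ratio of means of 1.67 and a log2 fold change of 0.74 (SE 0.053, adjusted p = 2.97e-08). Its share of all normalized counts went from 0.0545% to 0.0954%.

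FN1 measured 290309, 219626 and 296543 normalized counts in ConA controls 4, 5 and 6, and 175487, 160065 and 164621 with ConA. The groups did not overlap, but control 5 lay well below the other 2 controls, and the SD of the controls was 42722 on a mean of 268826. The log2 fold change was -0.68 (SE 0.0998, adjusted p = 3.67e-05), and -0.82 without control 5 (adjusted p = 4.03e-07). Under quantile normalization, which gives every library the same distribution of values, it was -0.098 (adjusted p = 0.189). This gene had the highest normalized counts of the 8 in both groups of controls.

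Thrombospondin-1 and tenascin-C were lower with ConA as well. THBS1 measured 11851, 11385 and 12334 normalized counts in the controls and 8638, 8096 and 8270 with ConA, 2 groups without overlap (log2 fold change -0.51, SE 0.052, adjusted p = 1.09e-06). TNC measured 4405, 3750 and 4612 normalized counts in controls 4, 5 and 6 and 3697, 3218 and 3338 with ConA. Control 5 was again the lowest, only just above the highest treated library, and the log2 fold change was -0.31 (SE 0.076, adjusted p = 0.00231).

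Both stanniocalcins fell with ConA at an adjusted p of 0.05. STC1 measured 25804, 24895 and 25847 normalized counts in the controls and 19875, 20614 and 18970 with ConA (log2 fold change -0.37, SE 0.052, adjusted p = 2.89e-05). STC2 measured 23599, 22536 and 22626 normalized counts in the controls and 17057, 15615 and 16207 with ConA (log2 fold change -0.49, SE 0.053, adjusted p = 1.68e-06). Neither gene had overlapping groups. Their ratio within a library was 1.09 to 1.14 in the controls and 1.17 to 1.32 with ConA.

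SPARC and FBN1 gave no change past the test with ConA. SPARC measured 122808, 123701 and 121646 normalized counts in the controls and 132274, 119981 and 124593 with ConA, and the treated libraries enclose the controls. The log2 fold change was 0.03 with a 95% interval from -0.10 to 0.17 (adjusted p = 0.662). Under quantile normalization it was 0.26 (adjusted p = 0.00332), and under median centring -0.030, so no direction can be given. FBN1 measured 9056, 6977 and 9080 normalized counts in controls 4, 5 and 6 and 8520, 8813 and 9100 with ConA. Here too control 5 was the lowest, the groups overlap, and the log2 fold change was 0.08 with a 95% interval from -0.10 to 0.26 (adjusted p = 0.395). Without control 5 it was -0.042.

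The difference between the treatments was tested for each gene as its log2 change with PMA minus its log2 change with ConA, over all 12 libraries. Each treatment keeps its own controls in this contrast, so no control sample is shared, but the treatment and the experiment it was run in cannot be told apart. Of the 8 genes, STC1 was called higher and THBS1, EFEMP1, SPARC and FBN1 were called lower, beside 3.67% higher and 6.89% lower of 15030 genes tested. At an adjusted p of 0.05 at any size 6 passed, beside 61.1% of all genes. STC1 had the largest difference of the 8, at 2.87 (SE 0.064, adjusted p = 2.07e-16), place 38 of the 7408 genes with a positive difference. EFEMP1, which fell with PMA and passed an adjusted p of 0.05 upward with ConA, differed by -2.33 (SE 0.059, adjusted p = 9.86e-16). SPARC differed by -1.56 (SE 0.066), THBS1 by -1.26 (SE 0.099) and FBN1 by -1.15 (SE 0.11), with adjusted p-values of 1.55e-12, 7.43e-09 and 1.38e-07.

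The other genes differed by less. STC2 fell with both treatments, and its difference of -0.41 (SE 0.061, adjusted p = 1.96e-05) lies below the fold threshold. For FN1 the difference was 0.12 with a 95% interval from -0.14 to 0.37 (adjusted p = 0.42). That value moved with each ConA control and with the scaling: it was 0.26 without control 5 (adjusted p = 0.00959), 0.055 without control 4 (adjusted p = 0.724), 0.039 without control 6 (adjusted p = 0.795) and -0.56 under quantile normalization (adjusted p = 1.55e-05). For TNC the difference was 0.21 with an interval from -0.00023 to 0.41 (adjusted p = 0.0775). It was 0.26 with median centring (adjusted p = 0.0293), 0.30 without ConA control 5 (adjusted p = 0.0055), 0.26 without ConA replicate 1 (adjusted p = 0.0258), 0.25 without PMA replicate 3 (adjusted p = 0.0428) and 0.087 under quantile normalization (adjusted p = 0.48).

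**Figure D3:**
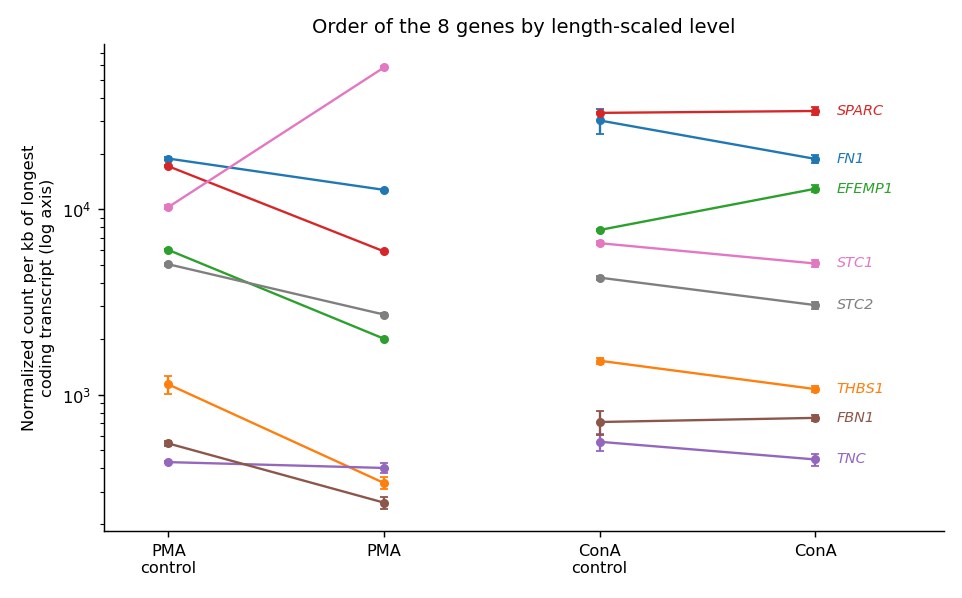
Normalized count per kb of the longest coding transcript (vertical log axis) of the 8 genes in the 4 groups (horizontal axis); points and bars give the mean and SD of 3 libraries, and lines join only groups of the same table. STC1 moves from 10292 to 58304 per kb with PMA and becomes the highest of the 8, while with ConA SPARC stays first at 33941 per kb.

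To compare levels between genes, normalized counts were divided by the length of the longest coding transcript in GENCODE 29, a scale that does not account for the transcripts these cells use. In the PMA controls the order per kb was FN1 (18793), SPARC (17082), STC1 (10292), EFEMP1 (6035), STC2 (5055), THBS1 (1136), FBN1 (546) and TNC (433), and the libraries of no 2 neighbours in that order overlapped. With PMA the order per kb was STC1 (58304), FN1 (12740), SPARC (5933), STC2 (2706), EFEMP1 (2004), TNC (402), THBS1 (334) and FBN1 (261), again without overlap between neighbours. STC1 thus passed FN1 and SPARC, and THBS1 and FBN1 passed below TNC. In the ConA controls SPARC (33158) and FN1 (30188) headed the order per kb with overlapping libraries, and FBN1 (712) and TNC (557) overlapped at its end. The 4 genes between them were EFEMP1 (7735), STC1 (6571), STC2 (4282) and THBS1 (1525). With ConA the order of the 8 genes was that of the ConA controls, from SPARC (33941), FN1 (18723) and EFEMP1 (12914) per kb down to TNC (447), and no neighbours overlapped.

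The controls of the tables were not alike for these genes, as levels that cannot be tested between tables. SPARC averaged 63219 ± 720 (SD, n = 3) normalized counts in the PMA controls and 122718 ± 1030 in the ConA controls, which were 0.171% and 0.286% of all normalized counts. STC1 averaged 39962 ± 847 and 25515 ± 538. All 8 genes together held 0.902% to 0.910% of the normalized counts in the PMA controls and 0.965% to 0.980% with PMA. Within that sum the mean share of STC1 rose from 0.108% to 0.564%, while that of every other gene of the 8 fell. In the ConA controls the 8 genes held 1.01% to 1.20%, and with ConA 0.928% to 0.975%. The ratio of SPARC to FN1 within a library went from between 0.374 and 0.381 to between 0.190 and 0.196 with PMA, and from between 0.410 and 0.563 to between 0.750 and 0.757 with ConA.

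Other genes with a like pattern were sought among 14661 genes tested in both tables, by the root mean square difference of their log2 values over the 12 libraries after centring each table. For STC1 the nearest was UPP1, at 0.082, with log2 fold changes of 2.46 with PMA and -0.48 with ConA. AKAP12 followed at 0.154. For SPARC the nearest were LPCAT3 (0.0466) and CYP51A1 (0.0642), and for EFEMP1 they were LIPA (0.0664) and PKP3 (0.0925). THBS1 was nearest to PTGFRN (0.0556) and FADS2 (0.0599), FBN1 to PIK3C2B (0.0706) and RNF144A (0.0813), and FN1 to AHNAK2 (0.0661) and PTPRF (0.0714). TNC was nearest to ADCY7 (0.0453) and FAM219B (0.0477), and STC2 to AMIGO2 (0.0348) and RALGDS (0.0391). These distances describe 12 libraries in 4 groups and carry no test.

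**Figure D4:**
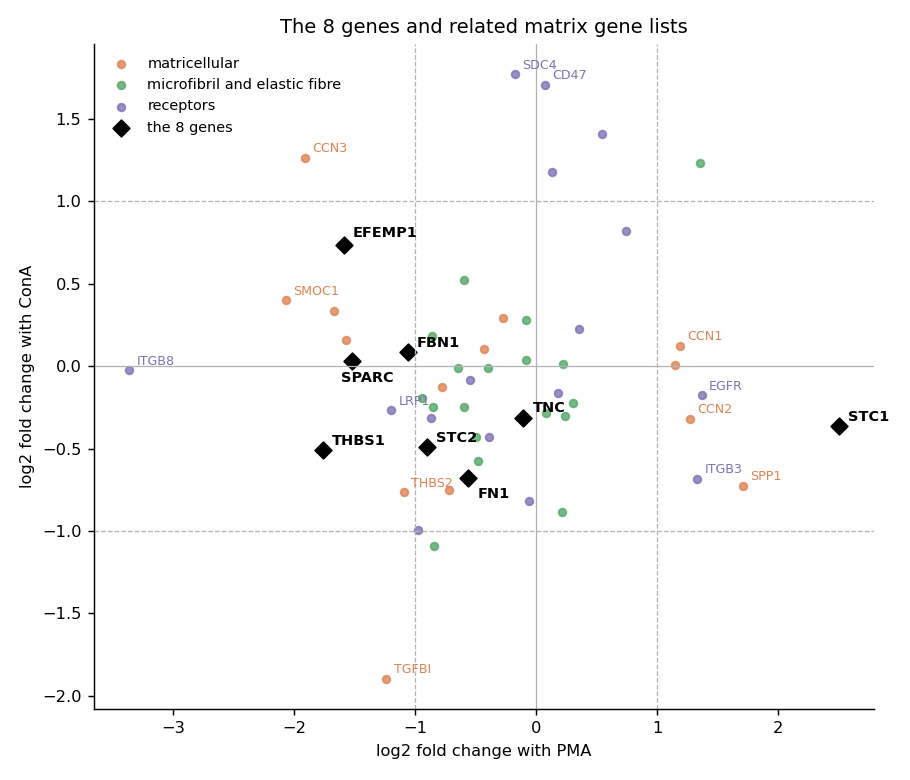
Log2 fold change with PMA (horizontal axis) and with ConA (vertical axis) of the 8 genes (black diamonds) and of related lists (dots; names for genes called with either treatment); dashed lines mark a log2 fold change of 1 in either direction. Of the 8 genes, STC1 lies farthest right at 2.50 and EFEMP1 highest at 0.74; among the genes of the 3 lists plotted (matricellular, microfibril and elastic fibre, receptors) ITGB8 reaches -3.36 with PMA and SDC4 1.77 with ConA.

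The wider family of matricellular genes was split with PMA. Of 22 other genes on that list 14 were tested, of which 3 were called higher and 4 lower, beside 4.03% and 4.61% of all genes, with a median log2 fold change of -0.75 against 0.0029 over all genes. At an adjusted p of 0.05, 4 rose and 9 fell, 13 of 14 beside 63.3% of all genes. The called genes that rose were SPP1 (osteopontin, log2 fold change 1.71), CCN2 (1.27) and CCN1 (1.19), and those that fell were SMOC1, a SPARC relative (-2.07), CCN3 (-1.91), TGFBI, an integrin-binding matrix protein (-1.24), and THBS2 (-1.09). The calls of CCN2, TGFBI and THBS2 were lost without the variance trend. SMOC1 went from 386.6 ± 26.3 to 91.3 ± 6.25 normalized counts (SD, n = 3), and its changes with PMA and ConA differed by -2.47 (adjusted p = 1.25e-11). With ConA 14 were tested, 1 was called higher and 1 lower, beside 5.83% and 2.88% of all genes, and 7 passed an adjusted p of 0.05, beside 65.3%, with a median of 0.054. CCN3 rose from 346 ± 22.9 to 832 ± 29.2 normalized counts (log2 fold change 1.27) and TGFBI fell from 2345 ± 41.3 to 631 ± 62.1 (-1.90). In the difference between treatments SMOC1 and CCN3, the latter at -3.18 (adjusted p = 1.33e-12), were called lower, as were the members THBS1, EFEMP1, SPARC and FBN1. Called higher in that difference were SPP1 (2.44), CCN2 (1.59) and CCN1 (1.07), and the call of CCN1 was lost with quantile normalization. Over all genes tested, 3.67% were called higher and 6.89% lower in the difference.

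Of 24 other microfibril and elastic-fibre genes none was called with either treatment, among 18 tested with PMA and 20 with ConA. The count went from 0 to 1 with PMA under quantile normalization (LTBP3, -1.05) and with ConA without control 5 (HMCN1, -1.07). With the adjusted p relaxed to 0.05 at the same fold threshold, the count was 1 with PMA and 2 with ConA. MFAP5 passed this rule upward with PMA (1.36) and with ConA (1.23), and FBLN7 passed it downward with ConA (-1.09). With PMA 2 rose and 9 fell at an adjusted p of 0.05, a share of 18 near the 63.3% of all genes, and the median log2 fold change was -0.44. Among those that fell were LOXL1, a crosslinking enzyme of elastic fibres (-0.95), LTBP3, which holds latent TGF-beta (-0.85), and EFEMP2, the closest relative of EFEMP1 (-0.65). With ConA 3 rose and 9 fell of 20, near the 65.3% of all genes, with a median of -0.21, and EFEMP2 had a log2 fold change of -0.0099 (adjusted p = 0.885). EMILIN1, an elastic-fibre glycoprotein, was called in the difference between treatments at -1.12 (adjusted p = 1.38e-07), with -0.60 for PMA and 0.52 for ConA. These genes were named after their values were seen.

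Of 20 receptors for the 8 proteins, 16 were tested with each treatment. With PMA the integrin subunit ITGB3 (1.33) and EGFR (1.37) were called higher, and ITGB8 and LRP1 (-1.20), an endocytic receptor that takes up thrombospondin-1, lower, 2 and 2 of 16 beside 4.03% and 4.61% of all genes, with a median of 0.0053. ITGB8, whose integrin binds latent TGF-beta, averaged 630 ± 70.4 (SD, n = 3) normalized counts in controls and 60.8 ± 11.6 with PMA (log2 fold change -3.36, adjusted p = 3.03e-09). At an adjusted p of 0.05, 5 rose and 7 fell, beside 63.3% of all genes in either direction. With ConA the matrix receptor SDC4, a syndecan, rose from 4722 ± 161.3 to 16135 ± 686 normalized counts, and CD47, a receptor of thrombospondin-1, from 3263 ± 118.8 to 10671 ± 567. Their log2 fold changes were 1.77 and 1.71, and the 2 calls higher and 0 lower stand beside 5.83% and 2.88% of all genes. With the adjusted p relaxed to 0.05 at the same fold threshold, 4 receptors passed with ConA. PTPRZ1 (1.41) and ITGB6 (1.18) were the ones added. SDC2, at -0.99 with ConA, was called lower without ConA replicate 1 (-1.08), without control 5 (-1.03) and under quantile normalization and median centring (both -1.06). With PMA it was at -0.98 and was called lower without PMA replicate 1 and under quantile normalization (both -1.03). With ConA 6 rose and 7 fell at an adjusted p of 0.05, beside 65.3% of all genes, and the median was -0.12. The changes of SDC4 and CD47 with PMA were -0.18 and 0.07. ITGA5, a subunit of the main fibronectin receptor, rose at an adjusted p of 0.05 with both treatments, by 0.74 and 0.82.

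On the axis that stanniocalcins inhibit, 6 of 7 listed genes were tested and none was called. With PMA none rose and 3 fell at an adjusted p of 0.05, 3 of 6 beside 63.3% of all genes, with a median of -0.38. PAPPA fell by 0.62 on the log2 scale (adjusted p = 6.32e-08) and PAPPA2 by 0.61 (adjusted p = 8.12e-07). With ConA 1 rose and 2 fell, 3 of 6 beside 65.3% of all genes, with a median of -0.096, and PAPPA2 had a log2 fold change of -0.97 (adjusted p = 4.7e-07). PAPPA2 lies next to the fold threshold and was called lower without ConA replicate 1 (-1.04), without ConA replicate 2 (-1.01), without control 5 (-1.03), under quantile normalization (-1.05) and under median centring (-1.03).

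Of 11 other proteins that the study places near TIMP2, 9 were tested with each treatment. CCN1 and CCN2, which the matricellular list holds too, and complement C3 were called higher with PMA, and MMP2, a gelatinase that TIMP2 binds, was called lower, 3 and 1 of 9 beside 4.03% and 4.61% of all genes, with a median of 0.49. At an adjusted p of 0.05, 6 rose and 3 fell, all 9 beside 63.3% of all genes. MMP2 went from 17270 ± 1327 to 7120 ± 323 normalized counts (SD, n = 3) with PMA (log2 fold change -1.28). With ConA C3 was called higher and none lower, beside 5.83% and 2.88% of all genes, 1 rose and 6 fell at an adjusted p of 0.05, 7 of 9 beside 65.3%, and the median was -0.25. C3 went from 517 ± 56.1 to 2213 ± 119.5 normalized counts with PMA and from 219 ± 27.0 to 8018 ± 484 with ConA (log2 fold change 5.19). The list was taken from the study's own text and is not independent of these experiments.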

How the data were processed

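Polyadenylated RNA of HT1080 cells, a human fibrosarcoma line, was sequenced by a service company in 12 libraries, 3 for each of 4 groups. The signal values deposited by the authors are normalized counts, 1 table per treatment, in which estimated counts of each gene symbol were scaled by 1 factor per library but not by gene length. The submitters' processing notes name STAR, Bowtie2, Partek and DESeq2 and the builds hg19 and mm10, without role or order, and the counter, the annotation and the use of strand are not given in the sources used here. Of the values between 5 and 60, 81.8% to 84.2% became whole within 0.05 under the best factor of each library, so whole reads were not recovered and no count model was run. Estimated depth was 33616852 to 45568279 reads on genes (median 40954456). Replicate libraries differed by 3.82 to 18.9 times the sampling variance, so they varied by more than read sampling alone would give.

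Groups came from the labels. Each treatment was compared with the controls of its table by limma 3.58.1 in R 4.3.3 on log2(value + 1), with a variance trend, over genes with a mean of at least 10, with Benjamini-Hochberg adjustment. The test of the RNA is not stated in the methods of the study, and the call thresholds (absolute log2 fold change of 1 and adjusted p of 0.0001) are those its figure draws. The difference between treatments was fitted over 12 libraries with 4 group means, for genes listed in both tables. With 3 libraries against 3, an exact permutation test could not go below p = 0.1, so none was used. The control and PMA libraries share replicate numbers 1 to 3, but deviations of same-numbered libraries correlated at -0.064, 0.096 and 0.096, so the numbers were not taken as pairs.

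Named genes were the 8 members and, of each related list, the 3 with the largest change among those called with either treatment; other called list genes, and the list genes without a call, were named after their values were seen. For each member the 2 genes nearest in pattern were also named. The members, the lists and these rules were chosen with earlier results of these data known. Alternatives changed the pseudocount (0.1 or 10), the filter (none or a mean of 50), the scaling (quantile or median), the variance trend, the set of libraries fitted together, the replicate block and the call threshold, or left out each library in turn. Promoter sequences are RefSeq's on GRCh38.p14, and transcript lengths are GENCODE 29's. Figures were made with Python 3.11.15, pandas 2.3.3 and matplotlib 3.10.9.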

Additional observations from a re-analysis of the deposited data

Results flagged for a closer look

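For 5 of the 8 genes the treatments had unlike effects past the fold threshold, by the test of the difference itself over 12 libraries (limma, 4 group means). On the log2 scale, STC1 differed by 2.87, EFEMP1 by -2.33, SPARC by -1.56, THBS1 by -1.26 and FBN1 by -1.15. EFEMP1 and STC1 passed an adjusted p of 0.05 in opposite directions under the treatments, THBS1 fell with both, and SPARC and FBN1 did not pass with ConA. Each group has 3 libraries, so no library was tested as an outlier.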

How the results depend on the processing

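With PMA 5 of the 8 genes were called, with ConA 0, and in the difference 5. Over all genes tested, 4.03% were called higher and 4.61% lower with PMA, 5.83% and 2.88% with ConA, and 3.67% and 6.89% in the difference. The counts of the 8 genes were the same when any 1 library was left out and under the other alternatives. The exception was that quantile normalization added STC2 with PMA (log2 fold change -1.07). Of 384 alternative values of single genes, 379 kept their direction and their side of the call, 1 became a call and 4 reversed. The reversed values all belong to changes that did not pass: SPARC with ConA was -0.030 with median centring and between -0.0053 and 0.065 with 1 library left out, FBN1 with ConA was between -0.042 and 0.15 with 1 library left out, and FN1 in the difference was -0.56 with quantile normalization. The cause was not tested. Over all genes, the calls went from 1310 to 867 with PMA and from 1318 to 662 with ConA without the variance trend. With the replicate number as a block (replicate block), 5 of the 8 genes were called with PMA and 1264 of all genes; the libraries share only a number. The ConA libraries and their controls share no number, so no paired analysis was possible there or in the difference. All 8 genes had at least 2373 normalized counts in each library, and each group has 3 libraries. What limits the small changes of TNC with both treatments, and of FBN1 and SPARC with ConA, was not tested. Control 5 was the lowest ConA control for 6 of the 8 genes, all but EFEMP1 and SPARC.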
